A study of Mus musculus with 63 samples.

Results

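MHC class I and its peptide-loading machinery were followed in the dorsal hippocampus through 9 genes, chosen by symbol from the 55401 genes of the deposited count table. They are H2-K1, H2-D1, B2m, Tapbp, Tap1, Tap2, Psmb8, Psmb9 and Nlrc5, and all 9 passed the filter on low counts. The donors were adolescent males and females of 2 inbred strains, C57BL/6J with 31 libraries and DBA/2J with 32. Each mouse had received an acute injection of ethanol (EtOH, 1.5 g/kg) or saline and had undergone fear conditioning (FC) or the control procedure without it (noFC). Strain, sex, drug and conditioning make 16 groups of 4 libraries, except the male C57BL/6J, saline, FC group with 3. The labels name no mutation, transgene or further agent. They do not say whether libraries of a group came from separate animals, so the errors measure the spread between these libraries, which may be partly technical.

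MHC class I molecules display short peptides from inside the cell at its surface. Proteasomes cut the peptides, and the inducible subunits Psmb8 and Psmb9 replace constitutive subunits in the immunoproteasome. The transporter formed by Tap1 and Tap2 carries peptides into the endoplasmic reticulum, where tapasin (Tapbp) bridges the transporter to a heavy chain (H2-K1 or H2-D1) bound to beta 2-microglobulin (B2m). Nlrc5 is the transactivator of class I genes. In the brain, class I molecules are known in microglia and vessels and in some neurons, where they have been studied in synaptic refinement and plasticity. On GRCm38 the genes of the set inside the MHC lie on chromosome 17: Tapbp (33915899-33929292), H2-K1 (33996017-34000347), Psmb9 (34181987-34187764), Tap1 (34187553-34197225), Psmb8 (34197721-34201454), Tap2 (34203527-34216321) and H2-D1 (35262730-35267499). B2m lies on chromosome 2 (122147686-122153083) and Nlrc5 on chromosome 8 (94434356-94527272). Inbred strains differ in their MHC haplotype: C57BL/6J carries H2-b, and DBA/2J carries H2-d, which has a further heavy-chain gene, H2-L, that C57BL/6J lacks.

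The upstream sequences of the heavy-chain genes are shown first because the motifs described for class I promoters can be read in them. Windows reached from 250 bases before to 50 after the RefSeq start of a gene (GRCm38.p6), and 7 of the 9 genes had one. Tap2 and Nlrc5 had none in the set used. RefSeq starts can differ from the gene positions given above. The upstream windows of H2-D1, Psmb9, Tapbp and Psmb8 lie inside those positions. The motifs searched, on both strands, were the interferon-stimulated element, the NF-kB site, the gamma-activated site TTCNNNGAA, the CCAAT box and the X2-box core TGACGC. The letters searched for the NF-kB site are the first capitals in both sequences below. The 250 bases upstream of H2-K1 (chr17:34000348-34000597, minus strand) and of H2-D1 (chr17:35262844-35263093, plus strand) read as follows, 5′ to 3′, with motif matches in capitals (ATTGG is CCAAT on the other strand).
H2-K1: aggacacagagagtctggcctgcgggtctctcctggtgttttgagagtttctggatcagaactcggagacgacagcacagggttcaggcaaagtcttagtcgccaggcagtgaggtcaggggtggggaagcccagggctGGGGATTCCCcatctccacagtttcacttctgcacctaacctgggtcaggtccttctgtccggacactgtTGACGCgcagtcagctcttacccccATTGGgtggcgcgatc
H2-D1: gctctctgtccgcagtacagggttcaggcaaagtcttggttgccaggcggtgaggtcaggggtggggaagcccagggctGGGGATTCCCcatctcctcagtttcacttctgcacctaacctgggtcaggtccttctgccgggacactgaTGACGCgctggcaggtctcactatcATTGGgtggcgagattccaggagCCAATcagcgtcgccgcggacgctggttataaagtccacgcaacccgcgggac
Both held the NF-kB letters, found in 0.107% of 32851 RefSeq windows, and the X2-box core, found in 7.4%. From the first base of the NF-kB match to that of the X2 match there were 70 bases in each gene, and 25 more to the first base of the next ATTGG. The whole array lay nearer to the RefSeq start in H2-K1, with NF-kB at 111 bases before it, than in H2-D1, with NF-kB at 171 bases. The gene position given above for H2-D1 begins at 35262730, before its array, so this contrast depends on the start that is taken. The 2 upstream sequences aligned over 177 bases and were identical at 91% of them.

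Only 1 pattern of letters was searched for each motif. Other forms of the NF-kB site or of the interferon-stimulated element would be missed in any window, that of B2m included. The shares of windows given are those of these exact patterns. B2m, which lies outside the MHC on chromosome 2, was the 1 gene whose window held the pattern of the interferon-stimulated element, found in 3.44% of windows. Its upstream 250 bases (chr2:122147437-122147686, plus strand) show that element, the first capitals (any base was allowed at its 5th and 6th position), and the CCAAT box.
B2m: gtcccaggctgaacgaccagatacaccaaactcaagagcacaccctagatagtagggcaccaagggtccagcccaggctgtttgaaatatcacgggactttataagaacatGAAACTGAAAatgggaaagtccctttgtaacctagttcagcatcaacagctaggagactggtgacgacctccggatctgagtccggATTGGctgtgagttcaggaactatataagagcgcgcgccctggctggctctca
By their RefSeq starts Tap1 and Psmb9 lie back to back, on opposite strands. Their upstream windows share 225 bases (chr17:34187331-34187555, given here on the strand of Tap1). The capitals mark the CCAAT box, the 1 motif found there.
Tap1 and Psmb9 shared: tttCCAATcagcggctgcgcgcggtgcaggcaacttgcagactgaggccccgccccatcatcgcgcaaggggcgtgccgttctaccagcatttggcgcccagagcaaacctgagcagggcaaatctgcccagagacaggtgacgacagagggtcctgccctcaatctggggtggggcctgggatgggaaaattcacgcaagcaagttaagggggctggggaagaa
Psmb8 held the gamma-activated site, found in 8.3% of windows, and the CCAAT box stood in 6 of the 7 windows and in 37.4% of all. A match is a run of letters, not a measured site.

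The same likeness runs through the coding sequences of the 2 heavy chains and bears on how their reads can be counted. The main coding transcripts H2-K1-201 and H2-D1-202 (GENCODE M21, GRCm38) were identical at 91.5% of 1077 aligned bases. Their longest shared run, 91 bases of exon 4, is longer than the 75-nt reads; it lies at chr17:33997343-33997433 on the minus strand in H2-K1 and at chr17:35265911-35266001 on the plus strand in H2-D1. It is printed with 10 flanking bases on either side, the shared run in capitals.
H2-K1-201: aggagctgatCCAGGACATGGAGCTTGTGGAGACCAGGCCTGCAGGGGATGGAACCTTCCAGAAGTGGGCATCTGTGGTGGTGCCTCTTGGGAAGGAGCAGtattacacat
H2-D1-202: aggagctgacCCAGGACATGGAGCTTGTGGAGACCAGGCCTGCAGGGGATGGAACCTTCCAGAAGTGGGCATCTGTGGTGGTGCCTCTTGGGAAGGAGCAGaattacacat
A read inside the run cannot be given to 1 of the 2 genes. Of all stretches of 75 bases in the annotated transcripts, 3.1% of those of H2-K1, 5.4% of those of H2-D1 and 1.1% of those of Tapbp occurred in other genes as well. H2-K1 shared most of them with other heavy chains, 89 of 116 with H2-Q10 and 48 with H2-Q7, and H2-D1 shared 110 of 140 with H2-Q1. None was shared for the other 6 genes. Gene models also overlap on the genome: Tap1 and Psmb9 share 212 bases on opposite strands, and Zbtb22 lies inside Tapbp on the same strand. The sources used here do not say whether the counting used strand, so the levels of Tap1 and Psmb9 are uncertain to that extent. For Tapbp and Zbtb22, strand could not separate the reads where they overlap.

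The libraries held between 21027659 and 61631742 counted reads (median 26379948), and no 2 libraries held identical counts. Hippocampal and glial markers were present in every library: the summed level of 4 neuronal markers ran from 6610 to 9340 CPM (counts scaled to 1e6 per library) and that of 9 microglial markers from 383 to 481 CPM. Markers of choroid plexus, a neighbouring tissue, varied far more, from 38.5 to 11900 CPM in C57BL/6J and from 30.2 to 10700 CPM in DBA/2J. The T-cell markers Cd3e and Cd8a were too low to be tested. In bulk tissue, fewer cells of a type and less RNA per cell cannot be told apart.

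Per kilobase of exon, B2m was by far the most abundant of the 9 transcripts, with 91.2 ± 11.6 CPM per kb (SD, n = 31) in C57BL/6J and 69 ± 8.85 (SD, n = 32) in DBA/2J. In C57BL/6J, H2-D1 (11.8 ± 1.55 CPM per kb), H2-K1 (7.65 ± 1.14) and Tapbp (5.72 ± 0.584) followed. Tap2 stood at 1.97 ± 0.309 CPM per kb, above Psmb8 (0.732 ± 0.13) and Tap1 (0.6 ± 0.111), and Psmb9 (0.288 ± 0.076) and Nlrc5 (0.111 ± 0.0331) were lowest. The order in DBA/2J was the same except that Tapbp (6.57 ± 1.19 CPM per kb) stood above H2-K1 (3.7 ± 0.586). In these gene counts the SD ranges of the neighbours Psmb8 and Tap1 overlapped in both strains, and those of the other neighbours did not. The distance of H2-K1 from Tapbp in DBA/2J depended on the counts used. In sums of the estimated transcript counts, not scaled by length, H2-K1 stood there at 17 ± 2.8 and Tapbp at 23.8 ± 4.36 CPM (SD). Those SD ranges overlapped. The low end rests on few reads: Nlrc5 had 9 to 56 counts per library and Psmb9 13 to 84, against 1089 to 4571 for B2m. These levels are of whole genes, not of coding transcripts. In the transcript estimates the retained-intron Tap2-202 took 74.4% of Tap2 counts in C57BL/6J and 76.8% in DBA/2J. Not scaled by length, the coding Tap2-201 stood at 1.43 ± 0.523 and 1.31 ± 0.737 CPM (SD). The coding Tap1-206 stood at 2.41 ± 0.706 and 1.96 ± 0.75 CPM.

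The strain comparison set DBA/2J against C57BL/6J over all treatments. H2-K1 was lower in DBA/2J, at 0.482 of its C57BL/6J level, as were B2m (0.755 of it) and H2-D1 (0.895), while Tapbp was higher (1.14-fold). The peptide transporter, the inducible proteasome subunits and Nlrc5 did not pass the test. In all, 4 of 9 genes were called at an adjusted p under 0.05 (1 higher, 3 lower), or 44.4%, against 50.0% of the 19974 genes tested (25.5% higher and 24.5% lower). The median log2 difference of the 9 genes was -0.10, and the median of its size was 0.13, against 0.11 over all genes. The share of the 9 genes called was thus near that of all genes.

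H2-K1, a classical heavy chain, stood at 17.3 (lowest), 21.8 (median) and 30.5 CPM (highest) in the C57BL/6J libraries and at 8.64, 10.7 and 14.7 CPM in DBA/2J. No DBA/2J library reached the lowest C57BL/6J library, a separation seen in 4.02% of all genes tested. The means were 22.5 ± 3.35 CPM (SD, n = 31) and 10.9 ± 1.72 CPM (SD, n = 32). The log2 difference was -1.05 (95% interval -1.16 to -0.94, SE 0.0536, edgeR quasi-likelihood adjusted p = 5.5e-24). A called difference of over 2-fold was found for 5.19% of genes, and H2-K1 was the 1 gene of the 9 among them. It was as large within the first round of title numbers (-1.08) and the second (-1.02), and with the mean of choroid plexus (-1.08), microglial (-1.10) or endothelial (-1.04) markers as a covariate.

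H2-D1, the other classical heavy chain, ran from 24.8 over a median of 29.2 to 40.7 CPM in C57BL/6J and from 19.3 over 26.7 to 35.4 CPM in DBA/2J. The ranges overlapped widely. The means were 30.3 ± 3.99 and 27.2 ± 3.38 CPM (SD, n = 31 and 32), a log2 difference of -0.16 (SE 0.0458, edgeR adjusted p = 0.0027). This direction did not hold in the second deposited table, described next.

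**Figure D1:**
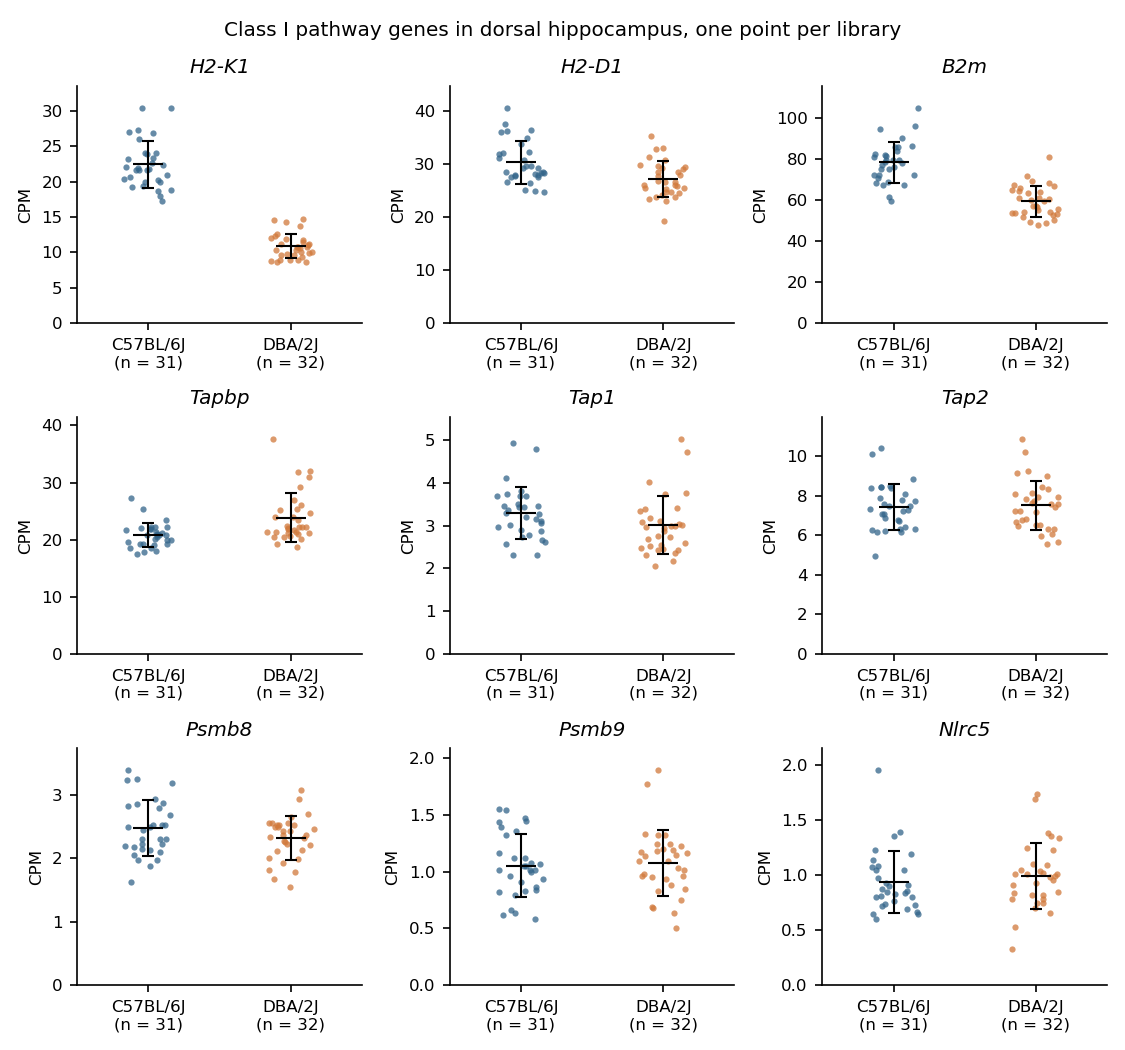
Level of each gene in CPM (vertical axes, from 0), 1 point per library, in 31 C57BL/6J and 32 DBA/2J libraries; horizontal marks are means and bars are SD. The 2 strains separate completely for H2-K1 (17.3 to 30.5 against 8.64 to 14.7 CPM) and overlap for the other 8 genes.

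The authors deposited 2 tables of the same libraries, reads counted per gene and estimated counts per transcript, and the heavy chains differ between them. Summed over its transcripts and scaled to the table's total, H2-K1 stood at 22.3 ± 3.51 CPM in C57BL/6J (SD, n = 31) and 17 ± 2.8 CPM in DBA/2J (SD, n = 32). In the gene table, scaled the same way, it stood at 22.3 ± 3.55 and 10.9 ± 1.79 CPM. The C57BL/6J means were equal at this precision, and the DBA/2J mean was higher in the transcript sums. Fitted on the transcript sums, the log2 difference was -0.41 in place of -1.05 (edgeR adjusted p = 6e-09), and the strains' ranges overlapped (16.9 to 31 against 13.3 to 23.2 CPM).

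For H2-D1 the transcript sums were 32.3 ± 4.44 CPM in C57BL/6J and 36.7 ± 4.92 CPM in DBA/2J, against 30.1 ± 4.17 and 27.4 ± 3.6 CPM in the gene table. Its strain difference turned from -0.16 to 0.17 (edgeR adjusted p = 0.0019 on transcript sums). Such shifts were uncommon. The log2 ratio of the strain means moved by 0.63 between tables for H2-K1, which 2.1% of the 16842 genes in both tables exceeded, and by 0.33 for H2-D1, which 3.75% exceeded. For the other 7 genes the shift lay between -0.06 and 0.03. The deposited reads were set against GRCm38, the C57BL/6J sequence, and the part that sequence differences of DBA/2J play in these counts was not tested. Whether reads of H2-L, the heavy-chain gene that C57BL/6J lacks, were counted under H2-D1 or another gene in DBA/2J was not tested either.

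**Figure D2:**
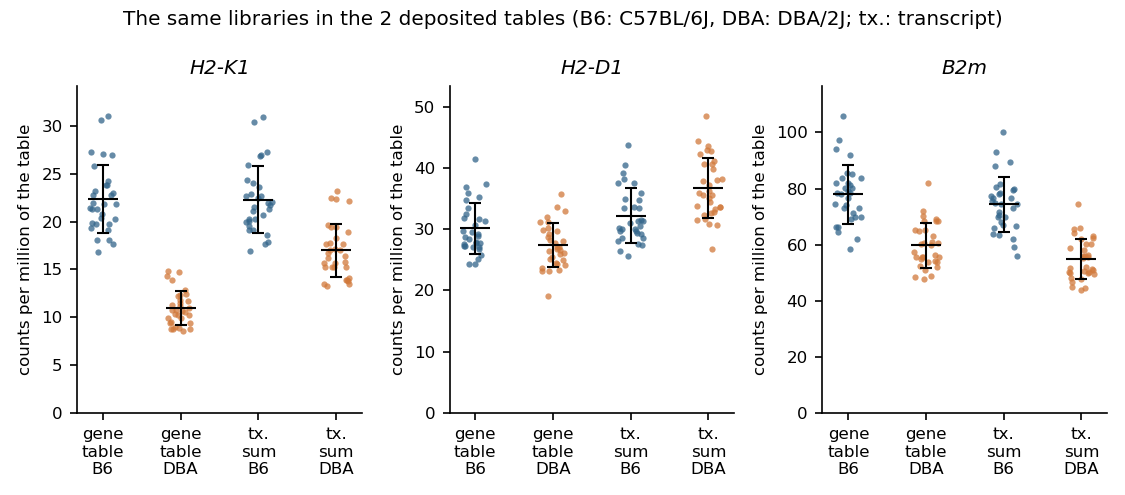
H2-K1, H2-D1 and B2m in the deposited gene table and as sums of the deposited transcript table, in CPM of each table (vertical axes, from 0), 1 point per library with mean and SD. DBA/2J levels of H2-K1 (10.9 against 17 CPM) and H2-D1 (27.4 against 36.7 CPM) are higher in the transcript sums, and those of B2m are not.

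The share of a gene's reads on each of its transcripts also differed between strains for the heavy chains. Of 8 genes with more than 1 tested transcript, 3 were called (H2-K1, H2-D1 and Tap1), against 25.6% of 9564 genes (limma diffSplice, Simes p). The main coding transcript H2-K1-201 took 66.2% ± 5.51 of H2-K1 counts in C57BL/6J and 59% ± 4.55 in DBA/2J, and the retained-intron transcript H2-K1-215 took 14.8% ± 2.87 and 23.6% ± 3.53. Those values are SD over 31 and 32 libraries, with a gene-level adjusted p of 1.5e-09. H2-D1-202 went from 74.2% ± 3.43 to 69.3% ± 4.41 of H2-D1 counts, and H2-D1-201 from 24.9% ± 3.57 to 28.9% ± 4.6 (adjusted p = 0.0077). The coding transcript Tap1-206 took 76.7% ± 15.5 and 68% ± 17.8 of Tap1 counts (adjusted p = 0.025). Leaving out single libraries left 2 or 3 genes called. B2m had a single transcript and was not tested.

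B2m, the light chain of every class I molecule, ran from 59.5 over a median of 78.3 to 105 CPM in C57BL/6J and from 47.9 over 58.4 to 81 CPM in DBA/2J. The highest DBA/2J library, of the female saline noFC group, stood above the C57BL/6J median. No library of the other DBA/2J groups exceeded 71.6 CPM. The log2 difference was -0.41 (SE 0.0463, edgeR adjusted p = 8.4e-11), from means of 78.5 ± 10 and 59.3 ± 7.61 CPM (SD, n = 31 and 32). On transcript sums it was -0.46, and between -0.42 and -0.39 without any 1 library.

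Tapbp, the tapasin that holds empty heavy chains for loading, ran from 17.5 over 20.8 to 27.3 CPM in C57BL/6J and from 18.7 over 22.2 to 37.7 CPM in DBA/2J. The ranges shared most of their lower part, and the DBA/2J libraries extended higher. The log2 difference was 0.19 (SE 0.0484, edgeR adjusted p = 0.00066), from means of 20.8 ± 2.12 and 23.8 ± 4.32 CPM (SD, n = 31 and 32). With the microglial marker mean as a covariate it fell below the threshold (0.11, SE 0.0606, adjusted p = 0.14). That mean holds markers that differed by strain themselves, as described below, so this fit does not separate microglia from strain.

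Among the 5 genes that were not called, Tap1, a subunit of the peptide transporter, stood at 3.29 ± 0.608 CPM in C57BL/6J and 3 ± 0.679 in DBA/2J (SD, n = 31 and 32; log2 difference -0.13, interval -0.26 to -0.01, edgeR adjusted p = 0.077). It passed the threshold when 1 of 3 libraries, named here by their titles, was left out: DBA_M_FC_EtOH_316_C (-0.15, adjusted p = 0.042), DBA_M_noFC_EtOH_316_D (-0.16, adjusted p = 0.033) or DBA_F_FC_EtOH_321_A (-0.16, adjusted p = 0.028). It also passed with the choroid plexus (-0.15, adjusted p = 0.027) or microglial (-0.20, adjusted p = 0.047) marker mean as a covariate. Its partner Tap2 stood at 7.45 ± 1.17 and 7.52 ± 1.26 CPM, with an interval of the log2 difference from -0.10 to 0.13. Psmb8 stood at 2.48 ± 0.44 and 2.32 ± 0.343 CPM (-0.22 to 0.02), and Psmb9 at 1.05 ± 0.278 and 1.07 ± 0.292 CPM (-0.16 to 0.22). For Nlrc5 the levels were 0.939 ± 0.281 and 0.989 ± 0.3 CPM (-0.13 to 0.26).

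Markers of other cell types differed between strains beside these genes. Lower levels in DBA/2J were called for all 4 markers of oligodendrocytes (summed level 7210 to 15500 CPM in C57BL/6J, 4470 to 12500 CPM in DBA/2J), and of 5 blood and T-cell markers the 3 that could be tested were higher (42.2 to 244 against 48.8 to 559 CPM). Of the 9 microglial markers 2 were higher and 4 lower (sums of 390 to 481 against 383 to 456 CPM), and of 7 endothelial markers 2 were lower (213 to 276 against 212 to 289 CPM). The strain fits above with the means of these markers as covariates therefore do not separate these cells from strain. Of 6 markers of hippocampal pyramidal and granule cells 4 were lower, of 6 meninges and fibroblast markers 2 were lower (74.5 to 663 against 59.7 to 936 CPM), of 4 astrocyte markers 1 was higher and 1 lower, and of 4 neuronal markers 1 was lower. Of 6 choroid plexus markers edgeR called 0, and 0 were at an unadjusted p under 0.05. Over all lists 24 of 49 tested markers were called, against 50.0% of all genes. The part of oligodendrocytes, blood, meninges and hippocampal cell types in the strain differences was not tested.

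The strain difference was also read in each state of drug and conditioning. H2-K1 was lower in DBA/2J in all 4 states, with log2 differences of -1.07 (saline, noFC), -1.13 (saline, FC), -0.87 (ethanol, noFC) and -1.13 (ethanol, FC). B2m was lower in all 4 as well, by -0.41, -0.41, -0.34 and -0.46 (edgeR adjusted p at most 0.0035 for both genes in every state). On transcript sums the H2-K1 difference in the state of ethanol without conditioning was -0.25 and was not called (adjusted p = 0.086). In the state of saline without conditioning these 2 of the 9 genes were called, against 27.9% of all genes, and with conditioning the same 2, against 23.2%. With ethanol, 4 genes were called without conditioning, against 26.3%, and 3 with it, against 25.6%.

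Within single rounds of titles B2m was not called in saline with conditioning (second round, -0.34) or in ethanol without it (first round, -0.24).

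Under saline with conditioning, single libraries decided further calls. H2-D1 passed without DBA_F_FC_SAL_313_A, DBA_M_FC_SAL_320_C or B6_F_FC_SAL_323_C (-0.27 to -0.26). Tapbp passed without DBA_M_FC_SAL_312_A, DBA_M_FC_SAL_316_A, DBA_F_FC_SAL_317_A or B6_M_FC_SAL_322_C (0.28 to 0.31). Psmb8 passed without B6_F_FC_SAL_315_A, B6_F_FC_SAL_319_C or DBA_F_FC_SAL_325_C (-0.36 to -0.34). The further calls under ethanol were less firm. Without conditioning they were Tapbp (0.27, adjusted p = 0.029) and Nlrc5 (0.55, adjusted p = 0.027), and both were lost without B6_F_noFC_EtOH_323_B (0.25 and 0.52). Tapbp was also lost without any 1 of B6_F_noFC_EtOH_311_D, B6_M_noFC_EtOH_314_D, DBA_M_noFC_EtOH_312_D, DBA_M_noFC_EtOH_316_D or DBA_F_noFC_EtOH_325_B (0.21 to 0.26). Nlrc5 was also lost without any 1 of B6_M_noFC_EtOH_310_D, DBA_M_noFC_EtOH_320_B or DBA_F_noFC_EtOH_321_B (0.42 to 0.52). With ethanol and conditioning the third was H2-D1 (-0.28, adjusted p = 0.015), lost without B6_M_FC_EtOH_318_A (-0.22, adjusted p = 0.075) and in the first round of titles alone (-0.20, adjusted p = 0.25). On transcript sums H2-D1 differed by 0.06 in that state (adjusted p = 0.72), and in ethanol without conditioning it was higher in DBA/2J (0.32, adjusted p = 0.0063). Whether the strain difference itself changed with drug or conditioning is tested below.

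**Figure D3:**
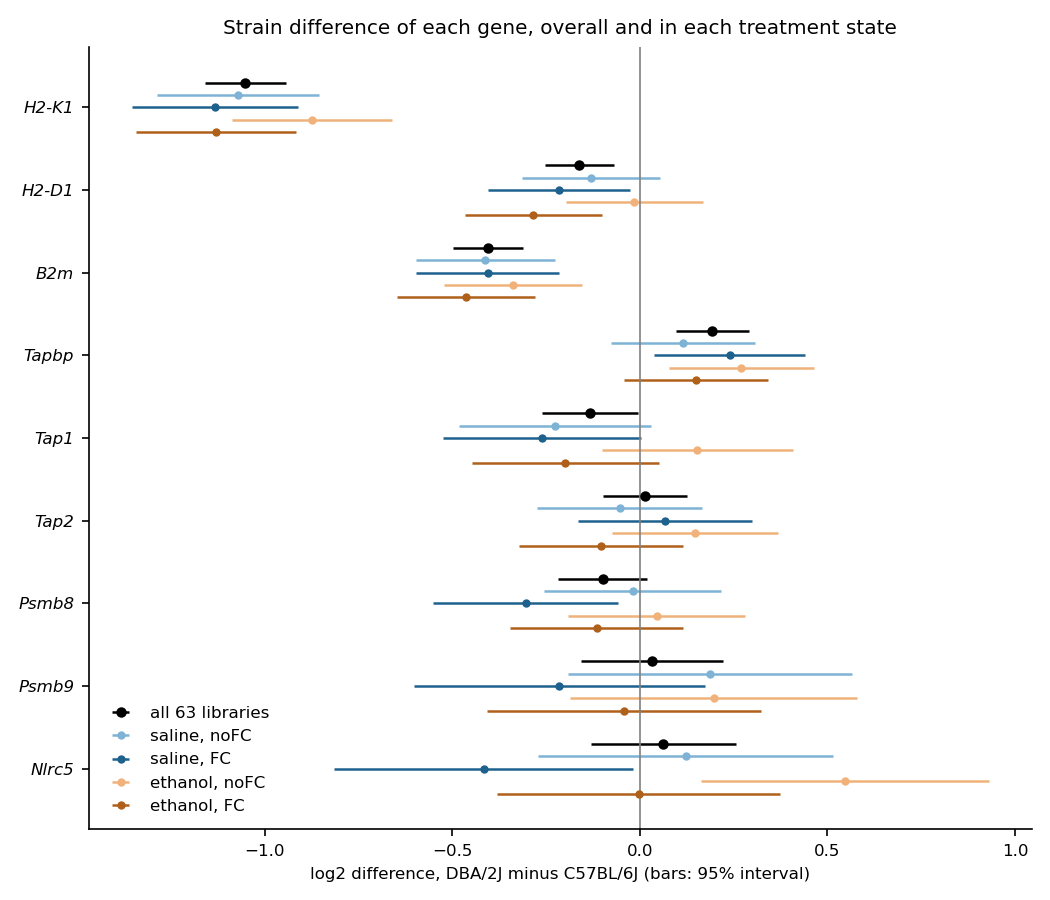
Log2 difference of DBA/2J minus C57BL/6J (horizontal axis) for each gene over all 63 libraries and in each of the 4 states of drug and conditioning; points are fitted values and bars 95% intervals. H2-K1 (-1.13 to -0.87) and B2m (-0.46 to -0.34) lie left of 0 in every state.

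Other genes of the class I pathway were described from lists. Among 5 genes of the loading complex and peptide trimming, 3 were higher in DBA/2J and 1 lower: Calr (0.19) and Canx (0.06), chaperones of the endoplasmic reticulum, and Pdia3 (0.25), their disulfide isomerase partner, rose, and the tapasin-related Tapbpl fell (-0.20). Of the constitutive catalytic subunits that the immunoproteasome replaces, Psmb5 stood at 46.6 ± 3.98 CPM in C57BL/6J and 30 ± 2.6 CPM in DBA/2J (SD, n = 31 and 32; log2 difference -0.63, edgeR adjusted p = 2.1e-26), and Psmb6 was lower too (-0.21). Psmb10, the third inducible subunit, was higher in DBA/2J (0.23), while the activator subunits Psme1 (-0.01) and Psme2 (-0.03) were not called.

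Of 14 regulators of class I transcription and interferon signalling, 5 were called, against 50.0% of all genes. Ifnar1, a chain of the type I interferon receptor, was higher (log2 difference 0.23), and Rfxank, a subunit of the factor that binds the X box, was lower (-0.47). Irf1 (-0.06) and Irf2 (-0.05) were not called. Among receptors for class I described in neurons and glia, Pirb was low in both strains and higher in DBA/2J (0.237 ± 0.0912 against 0.744 ± 0.225 CPM, SD, n = 31 and 32; log2 difference 1.62). Over the 27 partner genes tested, 14 were called, against 50.0% of all genes, with a median log2 difference of 0.03 against 0.005 over all genes.

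The other class I heavy-chain genes differed in both directions: of 21 listed, 17 could be tested, and 8 were higher and 7 lower in DBA/2J (25.5% and 24.5% of all genes were). H2-T22 fell (9.3 ± 0.88 against 5.17 ± 0.703 CPM, SD, n = 31 and 32; log2 difference -0.85), and H2-T24 rose (1.72 ± 0.308 against 4.24 ± 0.558 CPM; 1.30). H2-Q10 had 38 counts in all C57BL/6J libraries together and 1287 in DBA/2J (0.0443 ± 0.0435 against 1.44 ± 0.266 CPM). H2-Q10 shared more stretches of 75 bases with H2-K1 than any other gene did, and likeness within this list was not measured, so these levels are uncertain. Their median size of difference was 0.55, against 0.11 over all genes, and of 8 tested class II genes 3 were higher and 3 lower. In the stretch of chromosome 17 from 33815899 to 35367499 that holds the 7 members of the MHC with 100 kb on either side, 68 of 107 tested genes were called (63.6%, against 50.0% of all genes) and 17 called with over 2-fold (15.9%, against 5.19%). The neighbours of H2-K1 were the non-coding CR974462.6, which differed by -5.95 (adjusted p = 5.4e-32), and Ring1, which differed by -0.16 (adjusted p = 8.5e-06). Beyond H2-D1 the pseudogene Gm18733 differed by 8.46 (adjusted p = 9e-38).

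Fear conditioning was compared with no conditioning within each strain. In C57BL/6J none of the 9 genes was called by edgeR, as none of all genes was (0%), and DESeq2 called 0 of the 9. At an unadjusted p under 0.05 there were 3 of 9 with either tool, against 3.94% of all genes in edgeR. All 9 log2 differences were above 0, as were 50.4% over all genes, with a median of 0.13 against 0.001. Conditioning coincided with the letters that end the library titles (A and C with it, B and D without), so conditioning and whatever the letters stand for cannot be told apart. The 9 genes are correlated between libraries, as described below, so these are not 9 separate observations.

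Nlrc5, the class I transactivator, showed the largest of these differences. In C57BL/6J it ran from 0.648 over a median of 1.07 to 1.96 CPM in the 15 FC libraries and from 0.599 over 0.809 to 1.05 CPM in the 16 noFC libraries. The upper part of the FC libraries lay above every noFC library, and the lower parts overlapped. The log2 difference was 0.43 (interval 0.15 to 0.71, unadjusted p = 0.00281, edgeR adjusted p = 1), and 0.33 without the highest library, B6_F_FC_EtOH_319_A. It was 0.39 in the first round of titles and 0.43 in the second. In DBA/2J the libraries ran from 0.526 over 0.969 to 1.38 CPM with conditioning and from 0.326 over 1.01 to 1.74 CPM without (log2 difference -0.11, interval -0.38 to 0.16).

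The other genes at an unadjusted p under 0.05 in C57BL/6J were Psmb9 and H2-D1. Psmb9 stood at 1.19 ± 0.247 CPM with conditioning (SD, n = 15) and 0.929 ± 0.253 CPM without (SD, n = 16), a log2 difference of 0.35 (unadjusted p = 0.0132, edgeR adjusted p = 1). H2-D1 stood at 32.1 ± 4.93 and 28.7 ± 1.77 CPM (0.16, unadjusted p = 0.015, edgeR adjusted p = 1). In the partner list 5 of 27 genes were at an unadjusted p under 0.05 in C57BL/6J, against 3.94% of all genes, among them Irf9 (0.12). None was called. Of the other heavy chains H2-Q1, H2-Q2 and H2-Q6 were at that threshold, at log2 differences of 1.61, 0.82 and 0.83, and none was called either. These values lie near the floor, with 184, 167 and 368 counts in all C57BL/6J libraries together. H2-Q1 also shares stretches of 75 bases with H2-D1. Beside these, all 6 meninges and fibroblast markers lay above 0 for conditioning in C57BL/6J, with a median log2 difference of 0.26 and 1 at an unadjusted p under 0.05, Slc6a13 (0.39). Of 7 endothelial markers 6 lay above 0 (median 0.06), 1 of them at that threshold, Flt1 (0.10). The part of meninges in the 3 differences was not tested. Choroid plexus marker sums ran from 50.6 to 5150 CPM with conditioning and from 38.5 to 11900 without. With choroid plexus markers as a covariate the differences were 0.43 (Nlrc5), 0.33 (Psmb9) and 0.14 (H2-D1), and with endothelial markers 0.46, 0.33 and 0.13.

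In DBA/2J edgeR and DESeq2 called 0 of 9 genes for conditioning, again with 0% of all genes in edgeR, and 0 of 9 were at an unadjusted p under 0.05 (3.35% of all genes). The intervals allowed log2 differences of -0.38 to 0.16 for Nlrc5 and -0.14 to 0.13 for B2m. Beside this, the choroid plexus markers Ttr (2.22), Folr1 (1.68) and Kcnj13 (2.26) were at an unadjusted p under 0.05 in DBA/2J. The difference of the conditioning effect between strains was largest for Nlrc5 (-0.54, interval -0.93 to -0.16, unadjusted p = 0.00664, edgeR adjusted p = 1). It was the 1 gene of 9 at an unadjusted p under 0.05, against 3.63% of all genes, and 0 of 9 were called (0% of all genes; DESeq2 called 0).

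**Figure D4:**
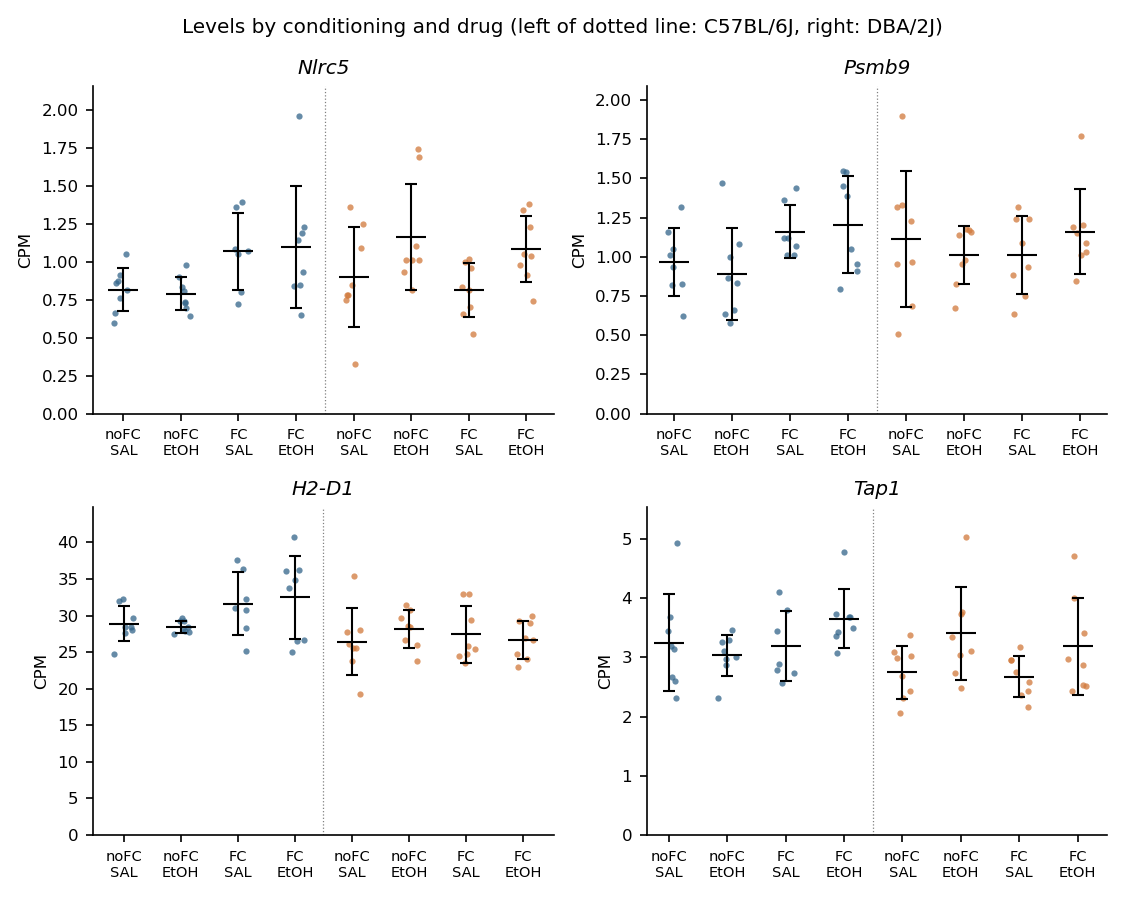
Nlrc5, Psmb9, H2-D1 and Tap1 in CPM (vertical axes, from 0) in each state of conditioning and drug, 7 or 8 libraries per state with both sexes together; points are libraries, marks means, bars SD. In C57BL/6J (left) mean Nlrc5 was 1.07 and 1.1 CPM with conditioning and 0.816 and 0.789 without, and the libraries overlap in every panel.

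Ethanol was compared with saline within each strain. In C57BL/6J none of the 9 genes was called (0.0901% of all genes were), and 0 were at an unadjusted p under 0.05, against 4.22% of all genes; DESeq2 gave 0 and 0. The fitted values lay between -0.05 (Psmb9) and 0.11 (Tap2). In DBA/2J none was called either by edgeR or by DESeq2, against 0.295% of all genes in edgeR, and 2 of 9 were at an unadjusted p under 0.05, Tap1 and Nlrc5, against 8.36%. In that strain 8 of 9 values lay above 0, against 51.8% of all genes.

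In DBA/2J Tap1 ran from 2.43 over a median of 3.08 to 5.03 CPM in the 16 ethanol libraries and from 2.06 over 2.72 to 3.38 CPM in the 16 saline libraries, with means of 3.3 ± 0.787 and 2.71 ± 0.388 CPM. The log2 difference was 0.28 (interval 0.10 to 0.46, unadjusted p = 0.00329, edgeR adjusted p = 0.24). Nlrc5 ran from 0.742 over 1.03 to 1.74 CPM with ethanol and from 0.326 over 0.824 to 1.36 CPM with saline. Its means were 1.12 ± 0.285 CPM with ethanol and 0.856 ± 0.258 CPM with saline (SD, n = 16 each; 0.40, interval 0.13 to 0.67, unadjusted p = 0.00409, edgeR adjusted p = 0.26). The ranges overlapped for both genes. Leaving out single libraries gave 0.23 to 0.32 for Tap1 and 0.34 to 0.47 for Nlrc5. The 2 rounds of titles gave 0.32 and 0.23 for Tap1 and 0.36 and 0.47 for Nlrc5. Titles ending in A and B were saline in the first round and ethanol in the second, and those in C and D the reverse. Within a single round, ethanol and whatever the letters stand for cannot be told apart. Microglial marker sums were 384 to 456 CPM with ethanol and 383 to 448 CPM with saline in this strain.

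The difference of the ethanol effect between strains was at an unadjusted p under 0.05 for 1 of 9 genes, Nlrc5 (0.42, interval 0.03 to 0.81, unadjusted p = 0.0341, edgeR adjusted p = 1), against 3.60% of all genes. None was called by edgeR or DESeq2 (0.0100% of all genes in edgeR). The ethanol effect was also compared between conditioning states, and 0 of 9 genes were called by edgeR or DESeq2 in either strain (0% of all genes in edgeR). At an unadjusted p under 0.05 there were 0 of 9, against 2.49% of genes in C57BL/6J and 5.58% in DBA/2J.

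Sex made no detectable difference to the 9 genes. None was called by edgeR (0.200% of all genes) or by DESeq2, and 0 were at an unadjusted p under 0.05 (5.48% of all genes). The fitted male minus female values lay between -0.07 (Tap2) and 0.09 (Psmb8). The strain difference was read in each sex by its interaction, and 0 of 9 genes were called by either tool (0% of all genes in edgeR), with 0 of 9 at an unadjusted p under 0.05 (3.55% of all genes). For H2-K1 the strain difference in males minus that in females was -0.07 (interval -0.29 to 0.14).

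Levels of the 9 genes were also correlated between libraries of the same group, for most pairs. After each group's mean log2 CPM was removed, all 36 pairs of genes had a Pearson r above 0 over the 63 libraries, against 49.1% of the pairs among all 19974 genes. Their median r was 0.34, against -0.01. Of the 36 pairs 25 passed an adjusted p of 0.05 (permutations within groups, Benjamini-Hochberg over the 36 pairs; 21 by Spearman's rho), and 11 did not. An r of at least 0.29, the smallest that passed, was found in 26 of the 36 pairs and in 10.8% of all pairs. The count depended on the libraries: 0 pairs passed in the first round of titles alone and 12 in the second, 15 in C57BL/6J and 17 in DBA/2J. The heavy chains were closest, H2-K1 with H2-D1 at r = 0.80 and rho = 0.82 (permutation p = 1e-05, the smallest that 100000 permutations give, adjusted p = 6e-05, 7.2e-05 for rho). This r was 0.78 without the 2 libraries farthest from the median of H2-K1, 0.82 in C57BL/6J, 0.78 in DBA/2J, 0.76 in the first round of titles and 0.83 in the second. The part of shared reads in this r was not tested.

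Pairs of genes with different roles followed. H2-K1 and Tapbp stood at r = 0.77 and rho = 0.76 (permutation p = 1e-05, adjusted p = 6e-05), with 0.75 without the 2 extreme libraries, 0.61 in C57BL/6J, 0.87 in DBA/2J, 0.41 in the first round and 0.78 in the second. For Tapbp and Tap2 the values were r = 0.75 and rho = 0.73, 0.69 without the 2 extreme libraries, 0.73 and 0.79 in the strains, 0.62 and 0.85 in the rounds. The weakest pair was B2m and Nlrc5 (r = 0.02, rho = 0.06, adjusted p = 0.88). Psmb8 and Psmb9, neighbours of the immunoproteasome, had r = 0.08 (rho = 0.07, adjusted p = 0.66).

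Marker lists of other tissues varied along with these genes. Of 36 pairs of a gene and the mean of a marker list, 18 passed an adjusted p of 0.05: 6 with choroid plexus, 7 with meninges and fibroblasts, 3 with endothelium and 2 with microglia. Tapbp had r = 0.83 and rho = 0.83 with the meninges list (permutation p = 1e-05, adjusted p = 7.2e-05; 0.84 without the 2 extreme libraries; 0.79 and 0.87 in the strains; 0.90 and 0.77 in the rounds) and r = 0.79 with choroid plexus (rho = 0.77, adjusted p = 7.2e-05). H2-K1 had r = 0.72 with the meninges list (rho = 0.73, adjusted p = 7.2e-05; 0.70 without the 2 extreme libraries; 0.68 and 0.75 in the strains; 0.55 and 0.75 in the rounds). Both pairs with microglia that passed were negative, with Tapbp (r = -0.29) and Tap2 (r = -0.38). Nlrc5 passed with none of the 4 lists (r from -0.23 to 0.01). The part of these tissues in the correlations between the 9 genes was not tested.

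**Figure D5:**
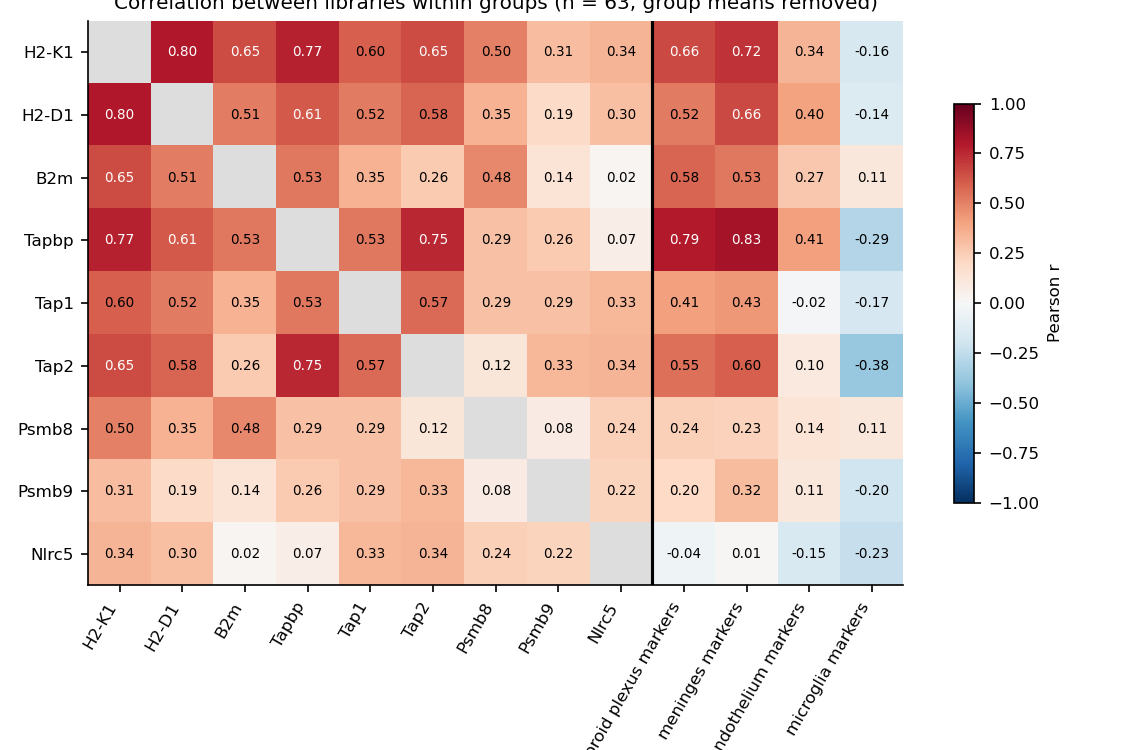
Pearson r between genes (left of the line) and of each gene with the mean log2 CPM of 4 marker lists (right), over 63 libraries after removal of the group means; red is positive, blue negative and grey is a gene with itself. The pairs among the 2 heavy chains and Tapbp have r of 0.61 to 0.80, and these 3 genes have r of 0.52 to 0.83 with choroid plexus and meninges markers.

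Among 14138 further genes, the 5 whose residual levels were most like the mean profile of the 9 genes were Ifitm3, an interferon-induced membrane protein (r = 0.85), the class I heavy chain H2-Q4 (r = 0.85), Lgals3bp, a secreted galectin-binding protein (r = 0.83), the phospholipid transfer protein Pltp (r = 0.81) and Mamdc2 (r = 0.81). Within the strains r ran from 0.72 to 0.85 in C57BL/6J and from 0.80 to 0.87 in DBA/2J. These are descriptions over 63 libraries, which share dissection and depth across all genes.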

How the data were processed

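Messenger RNA of dorsal hippocampus was sequenced with a stranded kit as 75-nt single reads, per the labels' protocols. The authors deposited gene counts (whole reads per gene) and estimated counts per transcript. The submitters' processing notes name fastp, HISAT2, featureCounts, Salmon, DESeq2 and GRCm38, without versions; whether counting used strand is not given in the sources used here. Symbols came from GENCODE M21, matched for 55141 of 55401 genes.

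Genes passed filterByExpr (minimum count 10, 16 groups), leaving 19974 genes with 99.95% of counts. Main tests used edgeR 4.0.16 in R 4.3.3 (TMM scaling, quasi-likelihood, 47 residual degrees of freedom) with Benjamini-Hochberg adjustment over all genes tested and a threshold of 0.05. Transcript shares used limma 3.58.1 diffSplice on estimated counts rounded to whole numbers. DESeq2 1.42.0, other scalings and filters, transcript sums, marker covariates, rounds of titles (310 to 317 and 318 to 325), a replicate block and leaving out each library were alternatives. Correlations used log2 CPM with group means removed, permuted within groups. Methods were tested on simulated data. CPM values are counts scaled to 1e6 per TMM-adjusted library, computed from the deposited counts. Intervals cover the spread between libraries. The 9 genes are all named, and other genes are named by list or, for likeness, as the closest 5. The members and lists were chosen with earlier results of these data known. Results of 1 gene of the lists are not reported here.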

Additional observations from a re-analysis of the deposited data

Results flagged for a closer look

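In 6 of 135 sets of 4 libraries (1 gene in 1 group each), 1 library stood apart from the other 3 by Dixon's criterion at 0.829 of the range, which chance gives in about 1 set in 20. Libraries are named by their titles. H2-D1 was highest at 35.4 CPM in DBA_F_noFC_SAL_325_D, with the next at 26.1. B2m was highest at 85.9 CPM in B6_F_FC_EtOH_311_C (next 75.9), and Tap2 at 7.21 CPM in B6_M_noFC_SAL_322_D (next 6.31). Nlrc5 was highest at 1.69 CPM in DBA_F_noFC_EtOH_321_B (next 1.1), 1 of the libraries without which its strain difference in that state was not called. Tapbp was lowest at 19.2 CPM in B6_F_FC_EtOH_323_A (next 21.7), and Psmb9 at 0.952 CPM in DBA_M_noFC_EtOH_316_D (next 1.14). The 6 sets involve 6 different libraries, 4 high and 2 low.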

How the results depend on the processing

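Under alternatives other than leaving out a library, 1611 values of single genes were compared. Of these, 1585 kept their side of the threshold, 13 fell below it, 10 passed it and 3 reversed. Only values called in the main fit could fall below it, and most of the 135 were not called. The main fit called 4 genes for strain, 2 in each saline state, 4 in ethanol noFC and 3 in ethanol FC. The number that kept their side thus rests mostly on values that were never called. A reversal was counted only where both values exceeded their SE. Smaller values could change sign within the 1585, as the strain difference of Psmb9 did (0.03, and -0.06 in the first round of titles alone). On sums of transcript counts the strain difference of H2-D1 was 0.17 over all states and 0.20 in saline noFC; in the first round of titles alone the conditioning difference of Tapbp in DBA/2J was -0.085. The cause was not tested. The number of the 9 genes called in saline FC went from 2 to 1 in the second round alone and to 5 with the choroid plexus covariate, and in ethanol noFC from 4 to 2 in either round alone and with the microglial covariate. Pairs past the threshold went from 25 to 15 in C57BL/6J alone, 17 in DBA/2J alone, 0 in the first round and 12 in the second; the cause was not tested. Leaving out each library gave 4 to 5 genes called for strain, 2 to 4 in ethanol noFC (2 without B6_F_noFC_EtOH_323_B), 2 to 3 in saline FC and in ethanol FC, 2 to 3 for transcript shares and 17 to 26 pairs. With the title number as a replicate block, 0 genes were called for ethanol or conditioning in either strain, as without it. Pairs of libraries from different groups of the same strain and sex were compared by number. The 93 pairs with the same number had a median r of 0.04 (-0.52 to 0.48, 32 over 0.1). The 279 pairs with different numbers had a median r of -0.01. Of 63 libraries, 27 correlated best with a library of their own number. The main fit did not pair libraries by number, and whether the numbers pair them was not tested. Each number holds a single strain and sex, so the block was not used for the strain comparison. Nlrc5 and Psmb9, with 9 to 84 counts per library, have the widest intervals.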
